A study of Mus musculus with 45 samples.

Results

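The Zic gene loci are the open chromatin regions around 4 mouse genes that sit in 2 divergent pairs, Zic1 with Zic4 on chromosome 9 and Zic2 with Zic5 on chromosome 14. A peak was counted as a member when its summit lies within 50 kb of the 5′ end of one of these genes in the GENCODE annotation of mm10. This rule uses position alone and gave 31 of the 184964 peaks, 15 at the Zic1-Zic4 locus and 16 at the Zic2-Zic5 locus. The filters on low counts left 28 of them for the test of the SOX2-FKBP time course and 29 for the test of all 3 lines, and 2 were never tested. Zic1 (ENSMUSG00000032368.14) lies on the minus strand at chr9:91358058-91365810 and Zic4 (ENSMUSG00000036972.14) on the plus strand at chr9:91362413-91389348, so that the gene bodies overlap and their 5′ ends are 3397 bp apart. Zic5 (ENSMUSG00000041703.7) lies on the minus strand at chr14:122456795-122465677 and Zic2 (ENSMUSG00000061524.8) on the plus strand at chr14:122475435-122479852, with 9758 bp between the 5′ ends.

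ZIC proteins are C2H2 zinc finger transcription factors related to the GLI effectors of Hedgehog signalling. They are known for roles in the patterning of the neural plate, the dorsal neural tube and the neural crest, and ZIC2 is also expressed in embryonic stem cells, where it binds enhancers. The question put to the data is whether accessibility at the genes that encode these factors changes when SOX2, OCT4 or NANOG is removed.

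The sequences below are those of the 4 intergenic peaks at the Zic2-Zic5 locus that the results turn on, 1 lost after SOX2 and OCT4 removal and 3 called lost at 24 h in all 3 lines. None of these 3 NANOG calls held without replicate 2 of the untreated (NT) NANOG-FKBP libraries, and some were also lost without other single libraries. Each sequence is 300 bases of the plus strand around the summit, from the RefSeq copy of GRCm38.p6, the assembly of mm10. Capitals mark matches to the core motifs searched: CAGCAGG for ZIC factors, CATTGT or CTTTGT for SOX factors, ATGCAAA for POU factors, TTGT, any base, ATG, any 2 bases and AA for the SOX-POU composite, and GGG, any base and GTGG for KLF factors, on both strands. A match describes the letters and is not evidence of binding. Matches elsewhere in a peak are not shown. The whole peak 49.3 kb downstream of Zic5 holds 2 ZIC, 2 SOX, 1 POU and 2 KLF matches. The whole peak 42.9 kb downstream holds 1 ZIC and 1 POU match, that 31.4 kb downstream 2 SOX matches, and that 3.13 kb upstream 3 SOX, 1 POU and 1 KLF match.
49.3 kb downstream of Zic5, chr14:122416193-122416492, with a ZIC core match 48 bp from the summit: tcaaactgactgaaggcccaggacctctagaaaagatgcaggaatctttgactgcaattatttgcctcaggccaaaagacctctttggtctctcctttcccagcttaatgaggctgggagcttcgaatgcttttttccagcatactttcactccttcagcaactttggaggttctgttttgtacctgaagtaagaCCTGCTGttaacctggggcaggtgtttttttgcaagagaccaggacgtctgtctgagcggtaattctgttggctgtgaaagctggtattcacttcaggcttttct
42.9 kb downstream of Zic5, chr14:122422597-122422896, with a POU core match on the minus strand: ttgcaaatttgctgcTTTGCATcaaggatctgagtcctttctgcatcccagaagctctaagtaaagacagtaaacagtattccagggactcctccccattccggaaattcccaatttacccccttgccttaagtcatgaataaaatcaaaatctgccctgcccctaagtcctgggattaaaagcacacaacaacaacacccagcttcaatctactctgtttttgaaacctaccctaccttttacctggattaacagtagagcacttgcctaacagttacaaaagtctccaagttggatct
31.4 kb downstream of Zic5, chr14:122434157-122434456, with a SOX core match: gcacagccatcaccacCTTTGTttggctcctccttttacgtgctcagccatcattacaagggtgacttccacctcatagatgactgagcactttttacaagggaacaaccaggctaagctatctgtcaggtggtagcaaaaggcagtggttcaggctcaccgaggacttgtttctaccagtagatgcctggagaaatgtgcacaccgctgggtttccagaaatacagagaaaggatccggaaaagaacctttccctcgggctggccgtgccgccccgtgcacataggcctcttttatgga
3.13 kb upstream of Zic5, chr14:122468659-122468958, with a KLF match 3 bp from the summit and a SOX core match: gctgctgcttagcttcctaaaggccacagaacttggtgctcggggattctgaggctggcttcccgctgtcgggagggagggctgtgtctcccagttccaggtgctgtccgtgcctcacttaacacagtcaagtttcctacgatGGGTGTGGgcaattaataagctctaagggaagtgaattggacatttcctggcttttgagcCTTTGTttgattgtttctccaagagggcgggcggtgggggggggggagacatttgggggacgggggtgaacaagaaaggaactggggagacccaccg

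The cells are mouse embryonic stem cells in which the endogenous SOX2, OCT4 or NANOG protein carries an FKBP tag, so that the small molecule dTAG-13, given at 500 nM, directs it to degradation. The SOX2-FKBP cells are E14 cells by their labels (the methods add the name IB10), sampled untreated (NT, with DMSO) and at 0.5, 1, 2, 6 and 24 h, with 2 libraries each. The OCT4-FKBP cells are V6.5 cells and were sampled at NT, 2, 6 and 24 h with 2 libraries each, and the NANOG-FKBP cells are E14 cells with 2 NT libraries and 3 libraries at each of 2, 6 and 24 h. All were grown without serum in 2i medium with LIF, and every NT sample carries the same tag as its treated samples. For SOX2-FKBP the methods also name an independent clone without saying which libraries came from it, and for NANOG-FKBP they describe duplicates where the labels give 3 treated replicates.

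Accessibility was measured by ATACseq, in which the Tn5 transposase inserts adapters into open DNA, and is given here as the number of sequenced fragments per peak after TMM scaling to a common library size. The 31 libraries hold between 1817191 and 17575631 fragments in peaks, with mitochondrial shares of 1.42% to 17.6%. Replicate 2 of the treated NANOG-FKBP cells stands apart, with the lowest totals (1817191, 3272168 and 2767190) and with 13.2% to 17.6% mitochondrial counts, so NANOG results are also given without these 3 libraries. Of 8 marker genes of pluripotent cells, 7 had a promoter peak (Pou5f1 had none), which at NT had a median of 145 to 165 normalized counts per kb over the 3 lines, against 31.6 to 51.8 for the 4 of 5 fibroblast feeder genes with a peak. Single pluripotency peaks ranged from 12.7 to 418 per kb. The medians were 33.6 to 59.4 for primitive endoderm (2 of 5 genes with a peak), 40.7 to 81.0 for trophectoderm, 57.2 to 71.7 for mesoderm and 29.7 to 78.4 for neural ectoderm markers. The ATAC signal is from bulk cells, so fewer cells with an open site and a less open site in every cell cannot be told apart. Nothing in the labels says that libraries of 1 group came from separate cultures, so the p-values measure the spread between these libraries.

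Degrading SOX2 closed intergenic elements around Zic2 and Zic5 and the peaks over the starts of the Zic genes did not pass the test without a block or GC offsets. At 24 h, 7 of the 28 member peaks that passed the filter on low counts were lost (25%) and 0 were gained by edgeR's quasi-likelihood test (Benjamini-Hochberg, 160432 peaks) (1 was higher at an unadjusted p under 0.05, and DESeq2 called 6 lost and 0 gained). In the edgeR fit without a block or GC offsets, 14.1% of all peaks tested were lost and 9.17% gained at that time. Shares of all peaks with a block or GC offsets are not given here. All 7 lost members are among the 15 tested at the Zic2-Zic5 locus, where the median log2 fold change was -0.88, against 0.04 over all peaks. In the fit of all 12 libraries without a block or GC offsets, none of the 13 tested at the Zic1-Zic4 locus passed the test. The median there was -0.15, and 1 peak was lower and 1 higher at an unadjusted p under 0.05. With the replicate number added as a block, 10 members were lost and 1 gained, of which 2 lost and the 1 gained are at the Zic1-Zic4 locus. With GC offsets 10 were lost and 0 gained, with the Zic4 promoter peak among the lost (-0.75, adjusted p = 0.0427, edgeR's quasi-likelihood test).

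**Figure D1:**
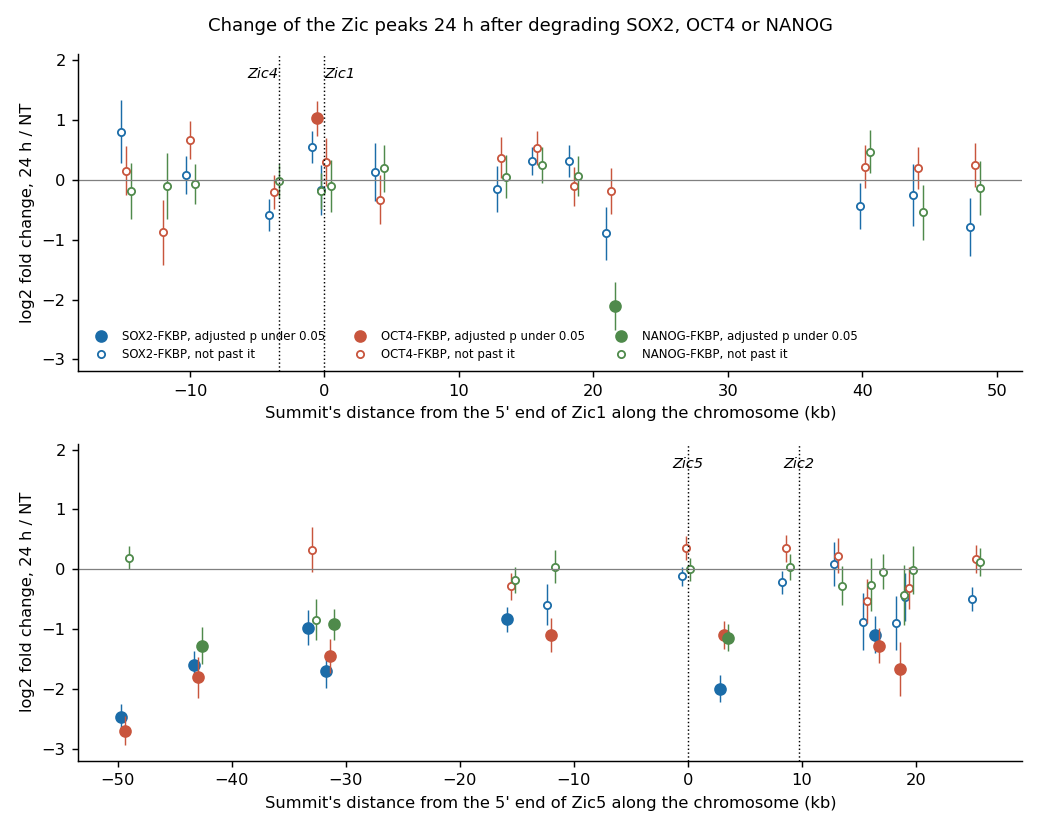
Log2 fold change of each tested member peak at 24 h of dTAG-13 against NT (y axis, with standard errors) by the distance of its summit from the 5′ end of Zic1 (top) or Zic5 (bottom) in kb, for SOX2-FKBP (blue), OCT4-FKBP (red) and NANOG-FKBP (green), with filled points past an adjusted p of 0.05. The lost peaks lie on both sides of Zic5, down to -2.70 at the peak 49.3 kb downstream, and the open points over the starts of Zic5 and Zic2 lie between -0.21 and 0.36.

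The number of lost members rose over the SOX2-FKBP course, as did that over all peaks, and at 0.5 h the share lost was near that of all peaks. In this course 1 member was lost at 0.5 h (3.14% of all peaks lost, 0.158% gained), 3 at 1 h (5.46% and 0.889%), 3 at 2 h (7.28% and 1.46%) and 4 at 6 h (9.28% and 2.66%), with 0 gained at each of these times. At an unadjusted p under 0.05, 3, 4, 5 and 5 members were lower and 0, 0, 1 and 0 higher. DESeq2 called 0, 1, 2 and 2 lost and 0 gained. As shares of the members tested these losses are 3.57%, 10.7%, 10.7% and 14.3%, which can be read against the shares of all peaks just given. The summed level of the 14 peaks of the Zic2-Zic5 locus that do not lie over the start of Zic5 or Zic2, with the peak 49.3 kb downstream of Zic5 among them, was 38.4% of NT at 24 h, and that of the 2 peaks over the starts of Zic5 and Zic2 was 90.7%.

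The 1 member called at 0.5 h, and the one with the most negative change at 24 h, is the intergenic peak 49.3 kb downstream of Zic5 (chr14:122415760-122417016), whose sequence is given above. In SOX2-FKBP cells its normalized counts were 296.7 and 310.8 at NT, 150.1 and 225.2 at 0.5 h, 66.0 and 93.0 at 1 h, 67.1 and 67.7 at 2 h, 69.9 and 90.5 at 6 h and 47.5 and 64.9 at 24 h. Every treated library lay below both NT libraries, and from 1 h on no library was above 93.0. Relative to NT, the mean level was 61.8% at 0.5 h, 26.2% at 1 h and 18.5% at 24 h. Its log2 fold change was -0.77 ± 0.18 (SE) at 0.5 h (adjusted p = 0.00835), -2.02 ± 0.20 at 1 h (adjusted p = 1.21e-08) and -2.46 ± 0.20 at 24 h (adjusted p = 7.98e-12, edgeR's quasi-likelihood test for all). The call at 0.5 h was lost without NT replicate 1 (-0.81), NT replicate 2 (-0.74) or 0.5 h replicate 1 (-0.47), and with DESeq2 (adjusted p = 0.0832), whereas the calls from 1 h on held under every alternative run.

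Removal of OCT4 also closed this element. The OCT4-FKBP libraries had 314.1 and 275.3 normalized counts at NT, 73.8 and 76.8 at 2 h, 70.4 and 51.1 at 6 h and 38.8 and 51.9 at 24 h. The groups did not overlap, and the level relative to NT was 25.6% at 2 h and 15.4% at 24 h. Fitted log2 fold changes were -1.97 ± 0.22 (SE) at 2 h, -2.28 ± 0.22 at 6 h and -2.70 ± 0.24 at 24 h (adjusted p = 4.1e-08, 4.11e-10 and 1.29e-10, edgeR's quasi-likelihood test on 27 libraries). Compared directly, the change after SOX2 and after OCT4 removal differed by -0.20 ± 0.31 at 2 h and 0.27 ± 0.33 at 24 h (SE), which did not pass the test (adjusted p = 0.956 and 0.779).

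NANOG removal did not change this element past the test. Its counts in NANOG-FKBP cells were 342.8 and 295.6 at NT, 298.6, 320.7 and 307.6 at 2 h, 317.2, 389.9 and 324.2 at 6 h and 352.3, 419.2 and 336.0 at 24 h, so that treated and NT libraries overlapped at each time. The log2 fold change at 24 h was 0.19 ± 0.19 (SE, adjusted p = 0.815 by edgeR's quasi-likelihood test). The difference between lines was tested directly. The change after SOX2 removal was more negative than after NANOG removal by -2.11 ± 0.30 at 2 h and -2.62 ± 0.30 at 24 h (SE, adjusted p = 3.04e-05 and 6.71e-08), and that after OCT4 removal by -1.91 ± 0.29 and -2.89 ± 0.31 (adjusted p = 8.36e-05 and 3.72e-08, edgeR's test of the interaction). It is the 1 member of 29 tested whose SOX2 and NANOG responses differed past the threshold at either time, where 1.75% of all peaks differed at 2 h and 6.78% at 24 h. In the blocked fit a second member also differed, at 2 h the peak 33.0 kb downstream of Zic5 (1.55 ± 0.40, adjusted p = 0.00829) and at 24 h the peak 6.97 kb downstream of Zic2 (-1.16 ± 0.39, adjusted p = 0.0407). The replicate numbers of that fit do not pair NT with treated NANOG-FKBP libraries.

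**Figure D2:**
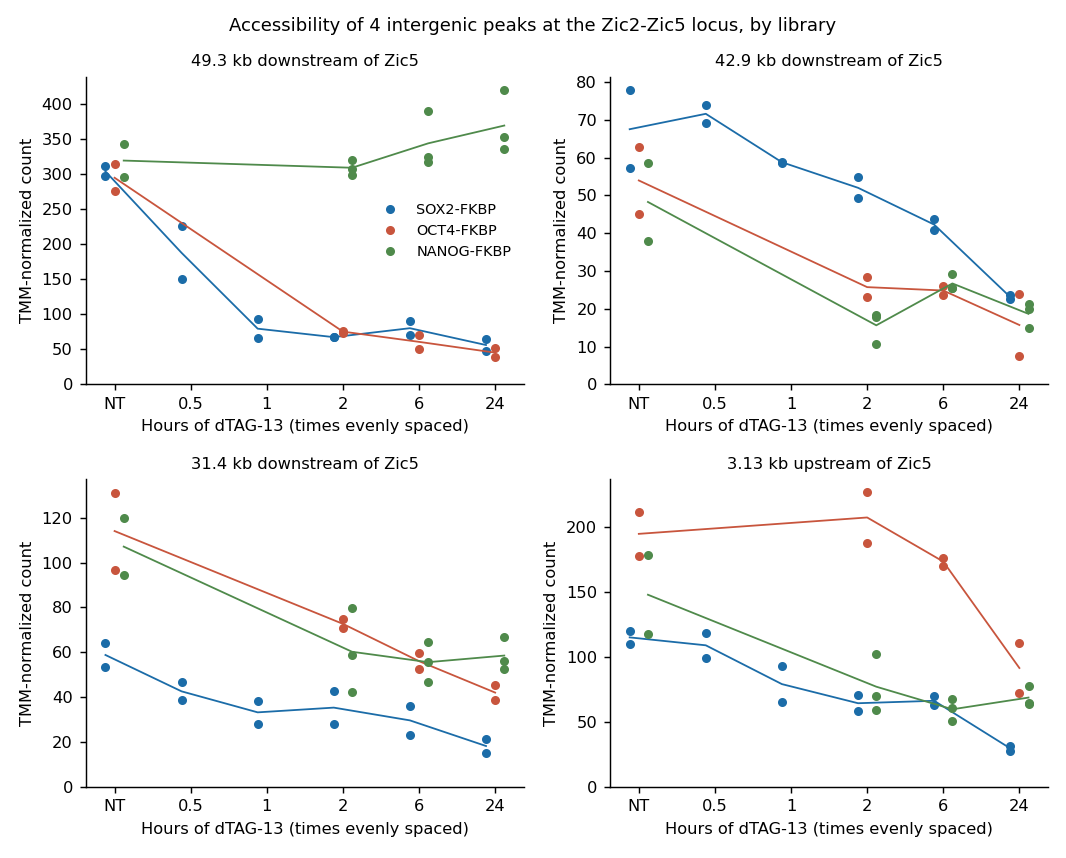
TMM-normalized counts (y axis) of the 4 intergenic peaks of the Zic2-Zic5 locus at NT and after 0.5 to 24 h of dTAG-13 (x axis, times evenly spaced), 1 point per library and lines through the means, for the 3 degron lines. The peak 49.3 kb downstream of Zic5 was at 93.0 counts or less from 1 h on in SOX2-FKBP cells, at 76.8 or less in treated OCT4-FKBP cells and at no less than 295.6 in NANOG-FKBP cells, and the other 3 peaks were lower at 24 h than at NT in all 3 lines.

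Another 3 intergenic elements were called lost in all 3 lines at 24 h. Without NANOG-FKBP NT replicate 2 none of the 3 was called at 24 h of NANOG removal. The peak between the starts of Zic5 and Zic2, 3.13 kb upstream of Zic5 (chr14:122468269-122469352), had 120.3 and 109.8 normalized counts at NT in SOX2-FKBP cells, 58.1 and 70.6 at 2 h and 27.5 and 31.7 at 24 h. In OCT4-FKBP cells it had 177.6 and 212.0 at NT, 188.1 and 226.7 at 2 h, 170.3 and 176.5 at 6 h and 72.6 and 110.4 at 24 h. In NANOG-FKBP cells it had 117.3 and 178.4 at NT, 69.9, 58.8 and 102.5 at 2 h, 60.8, 67.4 and 50.8 at 6 h and 64.6, 77.9 and 63.6 at 24 h. The peak was therefore lower at 2 h in both the SOX2 and the NANOG line, where treated and NT libraries did not overlap, and it overlapped NT at 2 h in the OCT4 line, where the libraries lay just below NT at 6 h and further below at 24 h. After SOX2 removal the log2 fold change was -0.90 ± 0.20 (SE) at 2 h and -2.0 ± 0.22 at 24 h (adjusted p = 0.00135 and 6.93e-09). After OCT4 removal it was 0.09 ± 0.22 at 2 h and -1.09 ± 0.24 at 24 h (adjusted p = 0.923 and 6.02e-04). After NANOG removal it was -0.89 ± 0.23 at 2 h, which missed the threshold (adjusted p = 0.0504). The blocked fit gave an adjusted p of 0.0144 there, and its numbers do not pair NT with treated NANOG-FKBP libraries. The log2 fold change was -1.31 ± 0.24 at 6 h and -1.14 ± 0.23 at 24 h of NANOG removal (adjusted p = 0.00102 and 0.002, all edgeR's quasi-likelihood test).

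The early difference between the SOX2 and OCT4 lines at this peak was -0.92 ± 0.33 (SE) on the log2 scale at 2 h. It did not pass edgeR's quasi-likelihood test of the interaction without a block (adjusted p = 0.197) and passed in the blocked fit (-0.94 ± 0.26, adjusted p = 0.0167). The 2 lines differed at 0 of 29 members at 2 h and 0 at 24 h without the block, where 1.57% and 2.77% of all peaks differed. At an unadjusted p under 0.05, 1 member was more negative in SOX2-FKBP cells at 2 h and 2 at 24 h, with 0 more negative in OCT4-FKBP cells, and DESeq2 called 0 at both times. The call at 24 h of OCT4 removal was lost without 24 h replicate 1 (-0.81) and that at 6 h of SOX2 removal without NT replicate 1 (-0.78). After NANOG removal the calls at this peak were lost at 6 h and at 24 h without NT replicate 2 (-1.0 and -0.82). At 1 h of SOX2 removal its log2 fold change of -0.64 ± 0.20 (adjusted p = 0.0495) lost the call without either NT library or without 1 h replicate 1 (-0.35).

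The peak 42.9 kb downstream of Zic5 (chr14:122422469-122423777) was called lost at 6 and 24 h of SOX2 removal. Its counts were 77.8 and 57.2 at NT, 54.9 and 49.2 at 2 h, 43.7 and 40.9 at 6 h and 22.5 and 23.7 at 24 h, which is 77.0%, 62.6% and 34.2% of NT. At 2 h its counts went from 45.1 and 62.9 to 23.0 and 28.5 in OCT4-FKBP cells and from 38.0 and 58.6 to 18.3, 10.7 and 17.9 in NANOG-FKBP cells. No 2 h library of either line reached its NT libraries. The 2 h change after SOX2 removal differed from that after OCT4 removal by 0.67 ± 0.39 and from that after NANOG removal by 1.07 ± 0.43 (SE), which did not pass edgeR's test of the interaction (adjusted p = 0.657 and 0.31). The 24 h log2 fold changes were -1.61 ± 0.23, -1.80 ± 0.34 and -1.27 ± 0.31 (SE) after SOX2, OCT4 and NANOG removal (adjusted p = 1.54e-06, 1.09e-04 and 0.0144, edgeR's quasi-likelihood test). The 6 h call in SOX2-FKBP cells (-0.76, adjusted p = 0.0107, the same test) was lost without NT replicate 1 (-0.49) or 6 h replicate 2 (-0.72). It was also lost with DESeq2 (adjusted p = 0.107). The 2 h call in OCT4-FKBP cells (-1.06 ± 0.28, adjusted p = 0.0106) was lost without NT replicate 2 (-0.78) or either 2 h library (-0.93 and -1.22). The 6 h call there (-1.13, adjusted p = 0.00286, edgeR's quasi-likelihood test) was lost without NT replicate 2 (-0.84). The 2 h call in NANOG-FKBP cells (-1.46 ± 0.33, adjusted p = 0.0148) was lost without NT replicate 2 (-1.14) or 2 h replicate 1 (-1.60), and the 24 h call without NT replicate 2 (-0.95), 24 h replicate 1 (-1.30) or 24 h replicate 3 (-1.34).

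The peak 31.4 kb downstream of Zic5 (chr14:122433784-122434807) was 53.3 and 64.3 at NT in SOX2-FKBP cells and 15.0 and 21.4 at 24 h. It was 96.9 and 131.2 against 38.8 and 45.2 in OCT4-FKBP cells, and 94.3 and 119.9 against 52.6, 66.8 and 56.2 in NANOG-FKBP cells. The groups did not overlap in any line, with 30.9%, 36.8% and 54.6% of NT left. The log2 fold changes were -1.70 ± 0.28, -1.45 ± 0.28 and -0.92 ± 0.26 (SE, adjusted p = 1.53e-05, 1.54e-04 and 0.0411, edgeR's quasi-likelihood test). Its calls at 1, 2 and 6 h of SOX2 removal (-0.90, -0.76 and -1.0) and at 6 h of NANOG removal (-0.99 ± 0.26, adjusted p = 0.0491) were not stable. The SOX2 calls at 1 and 2 h were lost without NT replicate 1, NT replicate 2 or replicate 1 of that time, that at 6 h without NT replicate 2 or 6 h replicate 1, and the NANOG call at 6 h without any 1 library. The NANOG call at 24 h was lost without NT replicate 1 (-1.09), NT replicate 2 (-0.75), 24 h replicate 1 (-0.85) or 24 h replicate 3 (-0.91), and with DESeq2 (adjusted p = 0.0666). At 2 h of OCT4 removal the peak passed the test in the blocked fit (-0.66 ± 0.18, adjusted p = 0.00503) and not without it (adjusted p = 0.116).

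After OCT4 removal 2, 3 and 7 of the 29 tested members were lost at 2, 6 and 24 h (6.9%, 10.3% and 24.1%), and each of them is at the Zic2-Zic5 locus. Of all 166430 peaks tested on the 27 libraries, 5.1% were lost and 1.92% gained at 2 h, 7.97% and 4.12% at 6 h and 12.7% and 10.8% at 24 h. The shares of members lost at 2 and 6 h were thus near those of all peaks. In the blocked fit, 4 were lost at 2 h. No member was gained at 2 or 6 h, with 0 higher at an unadjusted p under 0.05 and 0 by DESeq2. Besides the 4 intergenic peaks above, the losses at 24 h were 12 kb downstream of Zic5 (-1.09 ± 0.28 SE, adjusted p = 0.00365), 6.97 kb downstream of Zic2 (-1.27 ± 0.29, adjusted p = 9.52e-04) and 8.84 kb downstream of Zic2 (-1.67 ± 0.45, adjusted p = 0.00493, edgeR's quasi-likelihood test for all). The last fell from 41.0 and 38.1 to 5.0 and 19.9 counts, and its call was lost without 24 h replicate 1 (-0.96), as was that 6.97 kb downstream of Zic2 without NT replicate 1 (-0.78). The summed level of the 14 peaks not over the start of Zic5 or Zic2 was 52.2% of NT at 24 h.

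The peak 6.97 kb downstream of Zic2 was named after its values were seen. In OCT4-FKBP cells it had 145.3 and 78.9 counts at NT and 45.1 and 46.5 at 24 h, and in SOX2-FKBP cells 30.2 and 57.2 at NT and 15.0 and 24.5 at 24 h (-1.09 ± 0.31 SE, adjusted p = 0.00808). In the blocked fit it was also lost after OCT4 removal at 2 h (-0.63 ± 0.19, adjusted p = 0.0137) and 6 h (-0.70 ± 0.18, adjusted p = 0.00288, edgeR's quasi-likelihood test for all). The remaining SOX2 losses at 24 h, also named after their values were seen, were 33.0 kb downstream of Zic5 (-0.98 ± 0.29, adjusted p = 0.0124) and 15.5 kb downstream of Zic5, in an intron of the non-coding gene Gm5089 (-0.84 ± 0.21, adjusted p = 0.00245). The latter is also the promoter peak of Gm5089, with its summit 936 bp from that 5′ end. Each of these 3 SOX2 calls was lost in 2 of the 4 fits that leave out 1 library. At 6.97 kb these were without NT replicate 2 (-0.64) or 24 h replicate 1 (-0.80), at 33.0 kb without NT replicate 1 (-0.50) or 24 h replicate 2 (-0.69), and at 15.5 kb without NT replicate 2 (-0.66) or 24 h replicate 1 (-0.63). With offsets for GC content the peak 33.0 kb downstream no longer passed the test (-0.64, adjusted p = 0.133). In the blocked fit the peak 33.0 kb downstream of Zic5 passed the test after NANOG removal at 2, 6 and 24 h (adjusted p = 0.0104, 0.0473 and 0.0202). Without the block it did not (adjusted p = 0.292, 0.491 and 0.28, edgeR's quasi-likelihood test for all). The replicate numbers do not pair NT with treated NANOG-FKBP libraries. In the blocked fit the peak 15.5 kb downstream of Zic2 was lost at 24 h of SOX2 removal (-0.50 ± 0.19, adjusted p = 0.034).

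NANOG removal was followed by losses at a small number of members, at shares above those of all peaks. At 2 h 2 were lost, at 6 h 3 and at 24 h 4 of 29 tested (6.9%, 10.3% and 13.8%), against 0.938%, 1.08% and 2.25% of all peaks, and 0 were gained at each time, against 0.0162%, 0.0367% and 0.288% of all peaks. No member was higher at an unadjusted p under 0.05, and DESeq2 called 2, 2 and 3 lost and 0 gained. The 2 h count was 5 in the blocked fit, where the numbers do not pair NT with treated libraries. It was 0 without NT replicate 2 or 2 h replicate 1. The counts at 6 and 24 h were 0 and 1 without NT replicate 2. Without the 3 treated libraries of replicate 2, 2, 2 and 4 members were lost.

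The promoter peaks of Zic1, Zic4 and Zic5 and the peak over the Zic2 start did not pass the test without a block or GC offsets in any line at 24 h, and their levels at 24 h mostly overlapped with NT. The highest member peak spans the 5′ end of Zic2 (chr14:122473661-122476470), with its summit 1.14 kb upstream, in an intron of the antisense gene 2610035F20Rik. By the limit of 1 kb this peak is the promoter peak of 2610035F20Rik, whose 5′ end is 899 bp from the summit, and not of Zic2. It had 280.2 and 308.4 counts at NT and 204.2 and 312.6 at 24 h in SOX2-FKBP cells, 450.0 and 442.8 against 700.8 and 437.5 in OCT4-FKBP cells and 291.1 and 380.1 against 347.6, 304.2 and 375.2 in NANOG-FKBP cells. The treated and NT libraries overlapped in each line, and the log2 fold changes were -0.21 ± 0.19, 0.35 ± 0.23 and 0.04 ± 0.22 (SE, adjusted p = 0.457, 0.291 and 0.981). At 2 h of SOX2 removal it passed the test in the blocked fit (-0.41 ± 0.13, adjusted p = 0.0157) and not without it (-0.38, adjusted p = 0.275, edgeR's quasi-likelihood test for all).

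The Zic5 promoter peak (chr14:122462759-122465906), with its summit in the untranslated region 0.136 kb downstream of the 5′ end, did not pass the test either. It had 238.4 and 248.9 counts at NT and 195.8 and 262.8 at 24 h in SOX2-FKBP cells, 329.6 and 314.8 against 446.8 and 377.7 in OCT4-FKBP cells, and 254.2 and 393.7 against 317.0, 296.7 and 348.7 in NANOG-FKBP cells. The log2 fold changes were -0.12 ± 0.16, 0.36 ± 0.21 and 0.00 (SE, adjusted p = 0.653, 0.225 and 1.0, edgeR's quasi-likelihood test).

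These start peaks are rich in G and C, at 65.8% over the Zic2 start and 64.4% over Zic5, against a median of 50% over all peaks, and their direction depended on whether GC content was modelled. With GC offsets the peak over the Zic2 start changed by -0.57 after SOX2 removal (adjusted p = 0.0145) and by -0.42 after OCT4 removal (adjusted p = 0.12), and the Zic5 promoter by -0.45 (adjusted p = 0.0212) and -0.29 (adjusted p = 0.285, edgeR's quasi-likelihood test for all). The sign after OCT4 removal thus turned from positive to negative at both. With block and GC offsets together the peak over the Zic2 start was lost after both (-0.60 and -0.41, adjusted p = 1.15e-05 and 0.0225). In that fit it was also lost at 2 and 6 h of SOX2 removal (-0.34 and -0.35, adjusted p = 0.0424 and 0.0236). The Zic4 promoter was lost there at 2 h of SOX2 removal (-0.66, adjusted p = 0.0218, edgeR's quasi-likelihood test for all).

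**Figure D3:**
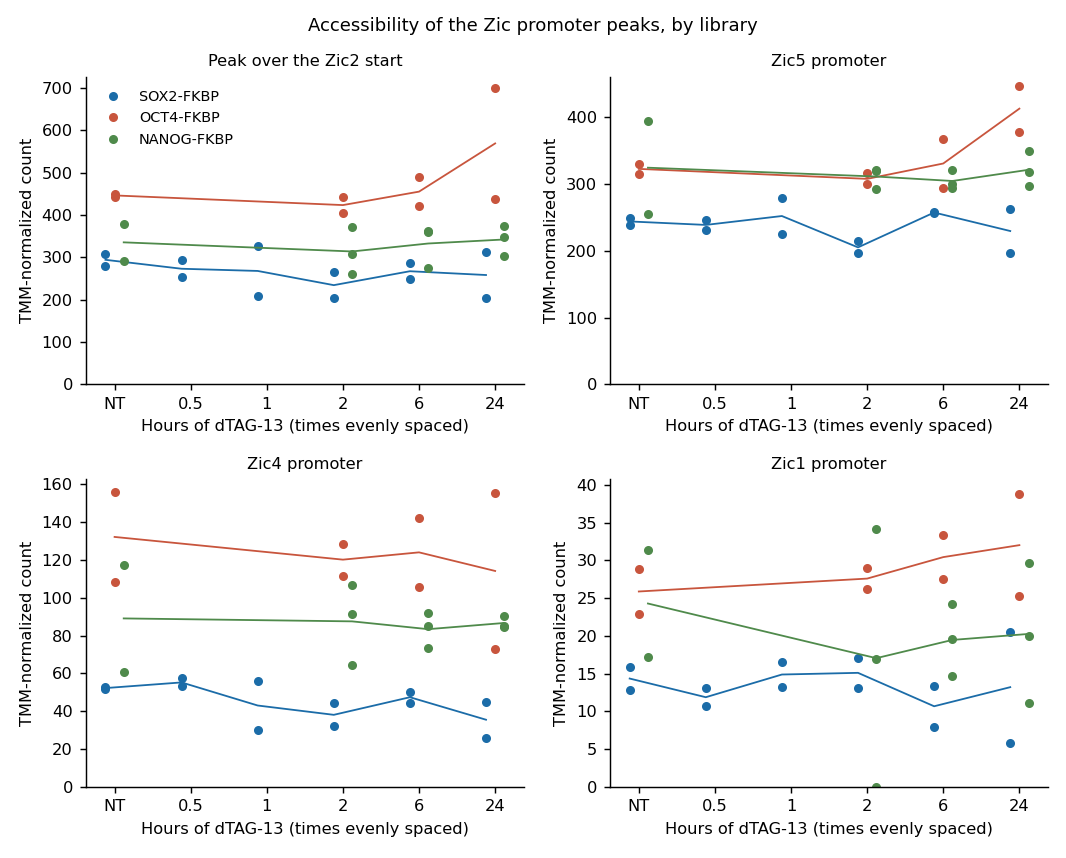
TMM-normalized counts (y axis) of the peaks over the starts of Zic2, Zic5, Zic4 and Zic1 at NT and after dTAG-13 (x axis, hours, evenly spaced), 1 point per library and lines through the means, in the 3 degron lines. Treated and NT libraries overlap at 24 h over Zic2 in each line, and the OCT4-FKBP libraries are the highest at NT over Zic2, where they read 442.8 and 450.0.

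At the Zic1-Zic4 locus the promoter peaks were lower and did not pass the test. The Zic4 promoter peak (chr9:91361256-91362582, summit 0.357 kb upstream of Zic4, in an intron of Zic1) is the highest of the locus. It had 51.9 and 52.6 counts at NT and 25.8 and 45.1 at 24 h in SOX2-FKBP cells, 156.0 and 108.3 against 155.2 and 73.1 in OCT4-FKBP cells and 61.0 and 117.1 against 84.6, 85.3 and 90.1 in NANOG-FKBP cells. After SOX2 removal both libraries were below NT, with a log2 fold change of -0.58 ± 0.27 (SE) that passed the test only in the blocked fit (-0.63 ± 0.22, adjusted p = 0.0188), with GC offsets (-0.75, adjusted p = 0.0427), with both or without 24 h replicate 2 (adjusted p = 0.0186), and not otherwise (adjusted p = 0.114, edgeR's quasi-likelihood test). After OCT4 and NANOG removal the log2 fold changes were -0.20 ± 0.28 and -0.02 (adjusted p = 0.675 and 1.0, the same test). The Zic1 promoter peak (chr9:91365747-91366032, summit 0.126 kb upstream) held 12.9 to 31.3 counts over the NT libraries of the 3 lines, and its log2 fold changes at 24 h of -0.16 ± 0.42, 0.30 ± 0.40 and -0.10 did not pass the test.

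Among the members 1 gain was called. The peak in the Zic1 untranslated region, 0.584 kb downstream of its 5′ end (chr9:91364133-91365481), had 78.0 and 72.5 counts at NT in OCT4-FKBP cells and 180.2 and 126.3 at 24 h, a log2 fold change of 1.03 ± 0.29 (SE, adjusted p = 0.00776 by edgeR's quasi-likelihood test). Both treated libraries lay above NT. Its GC content is 64.9%, and with GC offsets the change was 0.33 ± 0.26 (adjusted p = 0.397). The call was also lost without 24 h replicate 1 (0.76) or NT replicate 2 (0.95). After SOX2 removal the peak had 42.5 and 52.6 counts at NT and 48.3 and 91.0 at 24 h, which passed the test in the blocked fit (0.49 ± 0.20, adjusted p = 0.048) and not without it (0.55 ± 0.26, adjusted p = 0.136). In the blocked fit the peak 6.58 kb upstream of Zic4 was also gained at 24 h of OCT4 removal (0.66 ± 0.25, adjusted p = 0.0366).

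Without a block or GC offsets, a loss at the Zic1-Zic4 locus was called in the NANOG line alone. The peak 21.3 kb upstream of Zic1 (chr9:91386711-91387574) lies in the Zic4 untranslated region at the far end of that gene. In NANOG-FKBP cells it had 54.1 and 74.9 counts at NT, 17.6, 16.0 and 16.3 at 2 h, 24.2, 2.9 and 17.6 at 6 h and 19.3, 3.7 and 12.7 at 24 h. All 9 treated libraries were below both NT libraries, and the level relative to NT was 25.8% at 2 h and 18.5% at 24 h. Log2 fold changes of -1.91 ± 0.41, -1.78 ± 0.39 and -2.10 ± 0.40 (SE) were fitted at 2, 6 and 24 h (adjusted p = 0.00865, 0.00945 and 8.55e-04, edgeR's quasi-likelihood test), and the 3 calls held without the treated libraries of replicate 2. The 2 h call was lost without NT replicate 2 (-1.68) or 2 h replicate 1 (-2.01) and the 6 h call without NT replicate 2 (-1.55).

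In OCT4-FKBP cells the same peak had 33.6 and 48.6 counts at NT and 37.5 and 35.9 at 24 h, and in SOX2-FKBP cells 19.4 and 15.2 at NT and 5.0 and 14.2 at 24 h. The OCT4 response was less negative than the NANOG response by 2.08 ± 0.54 at 2 h and 1.92 ± 0.56 at 24 h (SE, adjusted p = 0.0227 for both, edgeR's test of the interaction). These differences were lost in 5 of the 9 fits at each time that leave out 1 library, and with scaling by total counts (adjusted p = 0.066 and 0.0689). The SOX2 response differed from the NANOG response by 1.07 at 2 h and 1.25 at 24 h, which did not pass the test (adjusted p = 0.722 and 0.341), and in the blocked fit the peak was lost after SOX2 removal at 6 h (-1.03 ± 0.38, adjusted p = 0.0464) and 24 h (-0.96 ± 0.39, adjusted p = 0.0468). Between OCT4 and NANOG, 2 of 29 members differed at each time, this peak and the one 49.3 kb downstream of Zic5, where 2.52% of all peaks differed at 2 h and 8.89% at 24 h. With the block, whose numbers do not pair NT with treated NANOG-FKBP libraries, 4 and 6 members differed.

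**Figure D4:**
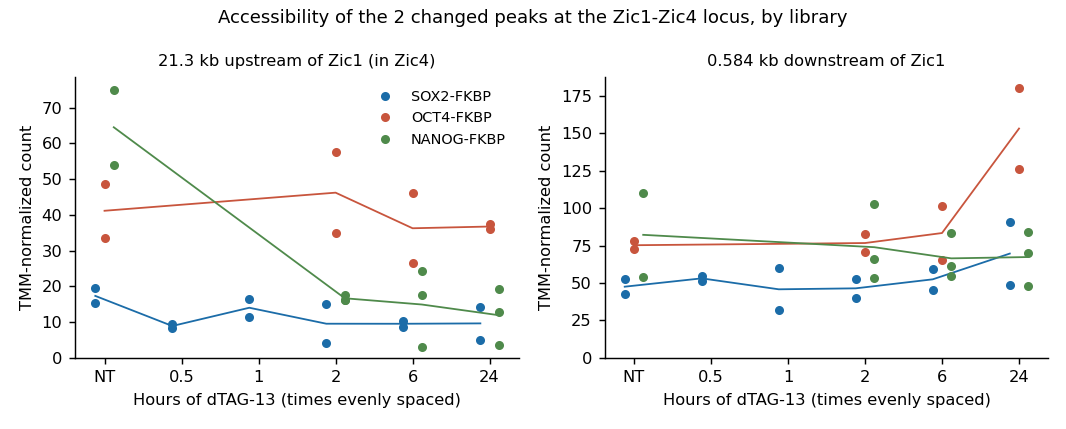
TMM-normalized counts (y axis) of the 2 changed peaks at the Zic1-Zic4 locus at NT and after dTAG-13 (x axis, hours, evenly spaced), 1 point per library and lines through the means. The peak 21.3 kb upstream of Zic1 fell in all 9 treated NANOG-FKBP libraries, and the peak 0.584 kb downstream of Zic1 was higher in both OCT4-FKBP libraries at 24 h, at 126.3 and 180.2.

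In untreated cells the Zic loci were less accessible in SOX2-FKBP cells than in OCT4-FKBP cells. Of 29 members 19 were lower in SOX2-FKBP cells and 0 higher by edgeR's quasi-likelihood test, where 11.8% of all peaks were lower. Of all 166430 peaks tested, 19646 were lower and 25696 higher. For the other settings below, shares of all peaks are not given. The median log2 difference was -1.02 over the members and -0.03 over all peaks. At an unadjusted p under 0.05, 21 were lower and 0 higher, DESeq2 called 13 lower and 0 higher, and in the blocked fit 23 were lower and 1 higher. The lower peaks include the Zic4 promoter peak, the peak 3.13 kb upstream of Zic5 and 9 of the 14 members tested on chromosome 9. The peak over the Zic2 start was also called (-0.60, adjusted p = 0.0492, edgeR's quasi-likelihood test), a call lost with GC offsets (-0.08, adjusted p = 0.786), with DESeq2 (adjusted p = 0.0815) and without any 1 of the 4 NT libraries. The count was 13 with scaling by total counts, 14 with GC offsets, and 4 of the 11 members with at least 10 counts in every library. It fell to 4 without SOX2-FKBP NT replicate 1, 10 without SOX2-FKBP NT replicate 2 and 9 without OCT4-FKBP NT replicate 2, and was 14 without OCT4-FKBP NT replicate 1. The lines differ in parental cells and tagged gene, which cannot be told apart here. The share of NT counts on chromosome 9 was 5.51% to 5.55% in SOX2-FKBP and 5.12% to 5.15% in OCT4-FKBP cells, and on chromosome 14 it was 3.58% to 3.59% and 3.12% to 3.26%. These are shares of the counts in peaks, and the copy number of the chromosomes or of the Zic loci was not tested.

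Between the 2 lines labelled as E14 cells fewer members differed. In SOX2-FKBP cells 2 members were lower than in NANOG-FKBP cells, the peaks 21.3 kb upstream of Zic1 and 31.4 kb downstream of Zic5, and 0 were higher. Of all 166430 peaks tested, 5680 were lower (3.41%) and 6005 higher. At an unadjusted p under 0.05, 9 were lower and 0 higher, and DESeq2 called 1 lower and 0 higher. With the block 5 were lower. The count was 0 without either SOX2-FKBP NT library or without NANOG-FKBP NT replicate 2, and 4 without NANOG-FKBP NT replicate 1. Between OCT4-FKBP and NANOG-FKBP cells, where 9.15% of all peaks differed, the peak 33.0 kb downstream of Zic5 was lower in the former (-1.06) and the peak 6.97 kb downstream of Zic2 higher (1.14). With the block 2 were lower and 8 higher. Without OCT4-FKBP NT replicate 1 or NANOG-FKBP NT replicate 1 both counts were 0, and without OCT4-FKBP NT replicate 2 and NANOG-FKBP NT replicate 2 the peaks higher were 2 and 4. Without NANOG-FKBP NT replicate 2 none was lower.

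**Figure D5:**
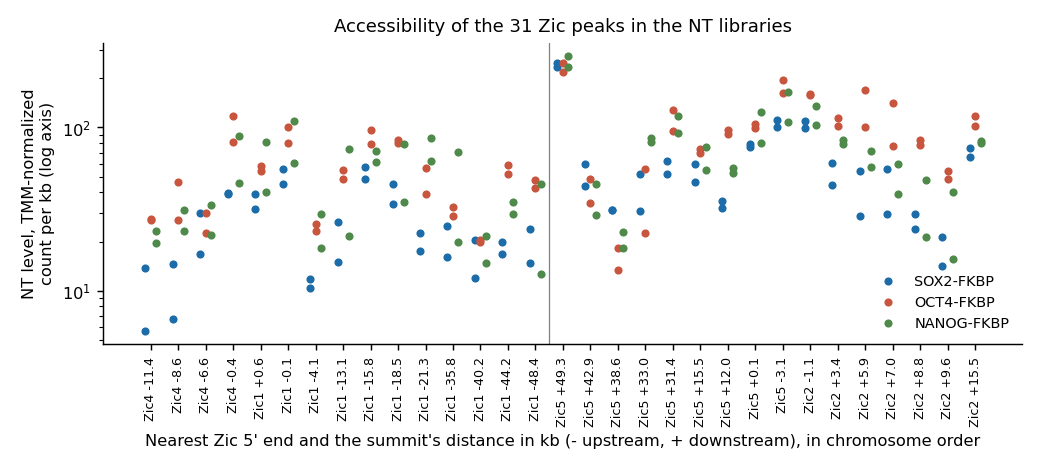
TMM-normalized counts per kb of peak (y axis, log scale) of the 31 member peaks in the NT libraries of the 3 degron lines, 1 point per library and 2 per line. Peaks stand in chromosome order (x axis), named by the distance of the summit from the nearest Zic 5′ end in kb. The OCT4-FKBP libraries read higher than the SOX2-FKBP libraries at most peaks, with 19 of the 29 tested past an adjusted p of 0.05.

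Per kb of peak, the start peaks ranged from the lower to the upper part of all 13785 promoter peaks of protein-coding genes. At NT the peak over the Zic2 start had 105, 159 and 119 normalized counts per kb in SOX2-FKBP, OCT4-FKBP and NANOG-FKBP cells, against promoter medians of 81.6, 95.4 and 94.1, and 63.4%, 77.6% and 62.9% of promoters were below it. The Zic5 promoter was at 77.4, 102 and 103 per kb. Zic4 and Zic1 were lower in SOX2-FKBP cells, at 39.4 and 50.2 per kb, and at 99.6 and 90.5 in OCT4-FKBP cells. A second peak near the Zic1 start, 0.584 kb downstream, was at 35.2 per kb in SOX2-FKBP cells. In that line the start peaks of Zic2 and Zic5 were thus above those of Zic1 and Zic4 on the scale of counts per kb of peak, with no order between the latter, since the peaks near the Zic1 start lay on both sides of Zic4.

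Over the 14 conditions, with levels centred within each line, the promoter peaks with the most similar course to the Zic2 start peak were those of Mbtps2, Zfp711 and Msc (Pearson r = 0.906, 0.896 and 0.891), and to the Zic5 promoter those of Nsg1, Asxl3 and Grid1 (0.941, 0.922 and 0.909). The median r over all 11300 promoters compared was 0.48 for Zic2, 0.52 for Zic5, -0.42 for Zic4 and 0.15 for Zic1. For Zic4 the most similar were Cdh6, Cd109 and Elavl2 (0.888, 0.818 and 0.813) and for Zic1 Abcb1a, Gja4 and Osbpl5 (0.767, 0.761 and 0.707). The Zic1 peak lies below the mean of 50 normalized counts required of the compared promoters. Levels were centred within lines and the promoters share the same libraries, so these are descriptions.

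The motifs searched occurred in the members at shares like those of all tested peaks, a description with no test. A ZIC core lay in 9 of the 31 members (29%) and in 31.3% of all tested peaks, a SOX core in 18 (58.1%) against 61.8%, a POU core in 4 (12.9%) against 14.3%, a SOX-POU composite in 1 (3.23%) against 1.36% and a KLF match in 11 (35.5%) against 33.5%. At the Zic2-Zic5 locus 12 of 16 members held a SOX core (75%), and at the Zic1-Zic4 locus 6 of 15 (40%). Of the 10 members lost in any line, 8 held a SOX core, 3 a POU core and 3 a ZIC core, at a median width of 1024 bp against 694 bp over all peaks, which gives more letters to match in. Members were richer in CpG, at a median of 39.1 per kb against 14.9 over all peaks.

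The promoter peaks of related genes, taken within 1 kb of a gene start, were counted at 24 h for 3 gene lists, against the shares of all peaks given above. Those shares cover peaks of every kind. A share over promoter peaks alone is not given, so the counts do not show a response particular to these genes. All 6 GLI-family genes of the list, zinc finger relatives of the ZIC factors, had a promoter peak. After SOX2 removal 4 were gained and 0 lost, with a median log2 fold change of 0.43, among them Gli1, a transcriptional activator and target of Hedgehog signalling (0.52 ± 0.18 SE, adjusted p = 0.0362), and Glis3 (0.62 ± 0.17, adjusted p = 0.00733). After OCT4 removal 4 were also gained and 0 lost, with a median of 0.72 and with Glis1 at 0.90 ± 0.22 (adjusted p = 0.00249, edgeR's quasi-likelihood test for all). After NANOG removal 0 passed the test in either direction and the median was 0.02. With GC offsets 0 were called after SOX2 or OCT4 removal and both medians fell to 0.12, and DESeq2 called 1 gained after SOX2 removal and 4 after OCT4 removal. With only the OCT4-FKBP libraries in the fit 2 were gained after OCT4 removal.

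Of 12 Hedgehog pathway genes 10 had a promoter peak, and the ligand genes Shh and Ihh had none. The co-receptor gene Gas1 was the 1 gained after SOX2 removal (0.51 ± 0.16 SE, adjusted p = 0.0159), a call not made by DESeq2, and 0 were lost. After OCT4 removal 4 were gained and 0 lost, namely Gas1, Cdon and Boc, all co-receptors, with Boc at 1.05 ± 0.27 (adjusted p = 0.0035), and Smo, the signal transducer of the pathway (0.88 ± 0.22, adjusted p = 0.00282, edgeR's quasi-likelihood test for all). After NANOG removal 0 passed. With GC offsets 0 were gained in either line, 1 was lost after SOX2 removal and 2 after OCT4 removal, and the median after SOX2 removal turned from 0.24 to -0.04. In the blocked fit 3 were gained after SOX2 removal, and 6 were gained and 1 lost after OCT4 removal.

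Of 10 regulators and markers of the neural ectoderm, where ZIC factors act, 9 had a promoter peak. After SOX2 removal 1 was lost, Nes, which encodes the intermediate filament nestin (-0.53 ± 0.16 SE, adjusted p = 0.015), and 0 were gained. After OCT4 removal Zfp521 was gained (1.06 ± 0.25, adjusted p = 0.00133, edgeR's quasi-likelihood test) and 0 were lost, and after NANOG removal 0 passed. The medians were 0.06, 0.32 and 0.05, and with GC offsets those after SOX2 and OCT4 removal turned to -0.23 and -0.34, with 1 and 2 lost and 0 gained.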

How the data were processed

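The deposited table holds raw counts of ATACseq fragments per peak without normalization. Per the labels and the methods, the authors aligned reads to mm10 with BWA 0.7.17-r1188, filtered with SAMtools 1.10, removed duplicates with Picard 2.12.0, ran MACS2 on the libraries combined to call peaks, and counted the fragments that overlap each. The peak list also holds the authors' fold enrichment (a ratio) and −log10 q-value of each merged peak, and neither entered a comparison. Of 45 samples, 31 have a count column, and the other 14 were not analysed here. Counts are of whole fragments, so no shift of the fragment ends enters them.

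Gene ends and annotation are from GENCODE vM21, sequence is from RefSeq GRCm38.p6, and 0 peaks run past a reference chromosome. The test was that of edgeR 4.0.16 in R 4.3.3 (TMM, estimateDisp, glmQLFit, glmQLFTest), adjusted by Benjamini-Hochberg over every peak in the fit, at a threshold of 0.05. The SOX2-FKBP course used 12 libraries and the 160432 peaks that exceeded 10 counts in more than 2 of them. The 3 lines were fitted together on 27 libraries (NT, 2, 6 and 24 h) and the 166430 peaks that exceeded 10 counts in more than 6, which also gave the differences between lines. Standard errors are the log2 fold change over the root of the F statistic. Levels are TMM-normalized counts at the geometric mean library size. Tables and figures were made with Python 3.11.15, pandas 2.3.3 and matplotlib 3.10.9.

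Both fits were tested on simulated data with 200 changed peaks. In the SOX2-FKBP course at 24 h 38 of 100 peaks changed by 1 on the log2 scale were recovered and 79 of 100 changed by 2, with 6 false calls of 123. In the fit of the 3 lines, at 24 h in OCT4-FKBP cells, these were 10 and 70 of 100, with 7 false calls of 87. The real contrasts called far more peaks, 22650 lost and 14716 gained for SOX2 and 21078 lost and 18027 gained for OCT4. The unadjusted p that sufficed for a call was therefore higher there, and recovery at that limit was not simulated.

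Libraries with the same replicate number deviated together over peaks with a mean of at least 50 counts in SOX2-FKBP, with correlations of 0.117 to 0.508 over 15 pairs of conditions, and in OCT4-FKBP, with 0.305 to 0.602 over 6 pairs. The numbers were therefore taken to pair these samples. In NANOG-FKBP treated times deviated together (0.488 to 0.561 over 3 pairs), and NT with treated times did not (-0.0723 to 0.0938 over 3 pairs). Like that of the study, the model leaves out a block, and blocked values stand beside results they change.

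The members, gene lists and tests were chosen with earlier results of these data known. Named peaks are the promoter peak of each gene within 1 kb, the highest peak of each locus, up to 3 called members in each direction per line and time with a mean of at least 20 counts and the same direction in every replicate, and members that differed between lines. Others are named as chosen after their values were seen. The alternatives were DESeq2 1.42.0, its size factors, total counts, other count filters, the replicate block, offsets for GC content in 100 bins alone and with the block, separate lines, windows of 25 and 100 kb and leaving out each library. Leaving out treated NANOG-FKBP replicate 2 at all times was chosen after seeing the data.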

Additional observations from a re-analysis of the deposited data

Results flagged for a closer look

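The response to degradation differed between lines, by edgeR's quasi-likelihood test of the difference itself, at 2 member peaks. At the peak 49.3 kb downstream of Zic5 the SOX2-FKBP change minus the NANOG-FKBP change was -2.11 at 2 h and -2.62 at 24 h on the log2 scale, and the OCT4-FKBP change minus the NANOG-FKBP change was -1.91 at 2 h and -2.89 at 24 h. In each of these 4 comparisons the result held under all 18 alternatives run. At the peak 21.3 kb upstream of Zic1, in the Zic4 untranslated region, the OCT4-FKBP change minus the NANOG-FKBP change was 2.08 at 2 h and 1.92 at 24 h. Of the 17 alternatives run for each, 6 did not pass the threshold. This peak had 54.1 and 74.9 normalized counts in the NANOG-FKBP NT libraries and 33.6 and 48.6 in the OCT4-FKBP ones, so the lines start from different levels.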

How the results depend on the processing

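The calls at the peak 49.3 kb downstream of Zic5 from 1 h of SOX2 removal on, at 2, 6 and 24 h of OCT4 removal and between these lines and NANOG-FKBP held under every alternative run. Counts of members moved as follows. Shares of all peaks under these settings are not given here, so the counts cannot be set against them. With DESeq2 the SOX2 losses were 0 at 0.5 h, 1 at 1 h and 2 at 6 h. With total counts they were 1 at 1 h, and OCT4 and NANOG responses differed at 1 member at 2 h. With at least 10 counts in every library, a filter that 11 members pass, 1 member was lost at 2 h of OCT4 removal. With that filter 0, 1 and 1 were lost at 2, 6 and 24 h of NANOG removal, and 1 differed between OCT4 and NANOG at 2 h. With only OCT4-FKBP libraries 1 was lost at 2 h. With GC offsets 0 were gained at 24 h of OCT4 removal. The cause of these moves was not tested.

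With the replicate block 1 member was gained at 24 h of SOX2 removal, 4 were lost at 2 h and 2 gained at 24 h of OCT4 removal, and 5 were lost at 2 h of NANOG removal. SOX2 and OCT4 responses then differed at 1 member at 2 h, SOX2 and NANOG at 2 at 2 h and 2 at 24 h, and OCT4 and NANOG at 4 and 6. With the replicate block and GC offsets, 6 were lost and 1 gained at 2 h and 12 lost at 24 h of SOX2 removal, 4 were lost at 2 h and 1 gained at 6 h of OCT4 removal, and 5 were lost at 2 h of NANOG removal. SOX2 and OCT4 then differed at 1 and 1 member at 2 and 24 h, SOX2 and NANOG at 2 and 5, and OCT4 and NANOG at 4 and 5. Between NT libraries, with the block 1 member was higher in SOX2 than OCT4 and 5 lower in SOX2 than NANOG, and 2 were lower and 8 higher in OCT4 than NANOG (2 and 6 with block and offsets). With DESeq2 or total counts 1 was lower in SOX2 than NANOG and 0 in OCT4 than NANOG, with the filter of 10 counts in every library 4 were lower in SOX2 than OCT4 and 0 than NANOG, with no filter 2 were higher in OCT4 than NANOG, and without treated NANOG replicate 2 also 2.

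Among the promoter peaks of Zic1, Zic4 and Zic5 and the peak over the Zic2 start, none of them called at 24 h without the block or GC offsets, signs turned as follows. After OCT4 removal the Zic1 promoter was -0.424 with GC offsets and -0.362 with block and offsets, the Zic5 promoter -0.285 and -0.289, and the Zic2 start peak -0.42 and -0.415. After NANOG removal the Zic4 promoter was 0.028 with the block and 0.073 with both, the Zic5 promoter 0.02 and 0.039, and 0.042 without treated replicate 2. The Zic1 promoter was then 0.019, and the Zic2 start peak -0.012 with total counts and -0.016 with at least 10 counts in every library.

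Leaving out 1 library of the groups compared at a time, SOX2 losses ranged from 0 to 1 at 0.5 h, 1 to 3 at 1 h, 2 to 4 at 2 h, 2 to 3 at 6 h and 5 to 8 at 24 h, and gains at 24 h from 0 to 1 (1 without 24 h replicate 1). The count was 1 at 1 h without NT replicate 1, NT replicate 2 or 1 h replicate 1, and 2 at 6 h without NT replicate 1. OCT4 losses ranged from 1 to 2, 2 to 3 and 5 to 7 at 2, 6 and 24 h, with 1 at 2 h without either 2 h library, and gains at 24 h from 0 to 1. NANOG losses ranged from 0 to 4, 0 to 2 and 1 to 4, with 4 at 2 h without 2 h replicate 3 and 2 at 24 h without 24 h replicate 1 or 3. Differences between OCT4 and NANOG ranged from 1 to 3 at 2 h and 1 to 4 at 24 h, with 1 at 2 h without OCT4 NT replicate 1, OCT4 2 h replicate 2, NANOG NT replicate 2 or NANOG 2 h replicate 1, and at 24 h 1 without OCT4 NT replicate 1 or NANOG 24 h replicate 3 and 4 without OCT4 NT replicate 2. Between NT libraries, members lower in SOX2 than OCT4 ranged from 4 to 14, lower in SOX2 than NANOG from 0 to 4, and lower or higher in OCT4 than NANOG from 0 to 1 and 0 to 4. The start peaks ranged at 24 h from -1.376 to 0.445 (Zic1, SOX2), -0.034 to 0.567 (Zic1, OCT4), -0.49 to 0.358 (Zic1, NANOG), -0.83 to 0.239 (Zic4, OCT4), -0.434 to 0.497 (Zic4, NANOG), -0.378 to 0.067 (Zic5, SOX2), -0.289 to 0.333 (Zic5, NANOG), -0.589 to 0.047 (Zic2, SOX2), -0.014 to 0.65 (Zic2, OCT4) and -0.14 to 0.236 (Zic2, NANOG). Where an arm kept 1 library, it is assumed to vary like the other groups.

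With windows of 25 and 100 kb the members number 22 and 50. The Zic1 promoter holds few counts per library. In the simulation 10 of 100 changes of 1 on the log2 scale were recovered in the fit of the 3 lines at 24 h of OCT4 removal. Its 200 changed peaks were drawn from all tested peaks, so it does not measure recovery at either locus.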
